A study of Mus musculus with 8 samples.

Results

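MHC class I and peptide loading is followed here through 10 genes in mouse thyroid, namely H2-K1, H2-D1, H2-T23, B2m, Tap1, Tap2, Tapbp, Psmb8, Psmb9 and Nlrc5. They were chosen by name, as every array probe annotated to one of these genes, which gave 13 of the 55681 probes on the array and 10 of the 21021 genes with a RefSeq probe. Thyroids of 4 mice exposed to 99mTcO4- were compared with thyroids of 4 control mice. All were female BALB/c mice, 8 weeks old and on a normal iodide diet. The exposed thyroids (S539, S588, S589 and S590) received an absorbed dose of 30 Gy from the radioisotope, given intraperitoneally 24 hours before RNA was collected. The controls (control 1 to control 4) are called untreated in one place of the study's text and saline-injected in another. Each thyroid was hybridised to its own one-colour Agilent array, on which a spot is brighter the more RNA its probe binds. The whole gland was used, so fewer cells of a type and less RNA per cell cannot be told apart in any value below.

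MHC class I molecules sit on nearly all nucleated cells and present short peptides, cut from proteins made inside the cell, to CD8 T cells. The proteasome cuts the proteins, the TAP transporter moves the peptides into the endoplasmic reticulum, and tapasin holds an empty class I molecule, which is a heavy chain bound to beta-2-microglobulin, beside TAP until a peptide fits. Interferon gamma raises most of these genes, partly through the transactivator Nlrc5, and swaps the catalytic subunits of the proteasome for the immunoproteasome subunits Psmb8, Psmb9 and Psmb10, which haematopoietic cells also carry without stimulation.

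Most of the members lie in the MHC on chromosome 17, where Psmb9, Tap1, Psmb8 and Tap2 stand side by side. Their 5 probes fall within 34002 bp, at chr17:34319174-34353175 of mm9, and all 10 member probes on that chromosome fall within 2101612 bp. B2m is on chromosome 2 and Nlrc5 on chromosome 8. In RefSeq (GRCm38.p6), which gave a promoter window of 250 bases before to 50 after the start site for 8 of the 10 genes, Tap1 and Psmb9 start 226 bp apart and are read away from each other, and their windows share 275 bases. The 225 bases between the start sites are shown first, on the Tap1 strand, because Tap1 and Psmb9, whose fold changes below have opposite signs, share this stretch. The 250 bases before the start of Psmb8, the neighbour whose values ran with those of Psmb9, and of B2m, the light chain, follow for comparison. Capitals mark matches, on either strand, to an IRF element (GAAANNGAA), a kB element (GGGANNNCC), a GAS element (TTCNNNGAA), a CCAAT box (CCAAT) or a CRE-like box (TGACG), and no matches overlapped within these stretches.
Psmb9-Tap1, chr17:34187331-34187555, plus strand: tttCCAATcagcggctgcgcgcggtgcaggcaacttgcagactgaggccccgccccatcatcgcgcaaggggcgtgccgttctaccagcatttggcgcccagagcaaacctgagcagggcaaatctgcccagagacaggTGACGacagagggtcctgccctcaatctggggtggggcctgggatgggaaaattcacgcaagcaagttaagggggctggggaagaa
Psmb8, chr17:34197945-34198194, plus strand: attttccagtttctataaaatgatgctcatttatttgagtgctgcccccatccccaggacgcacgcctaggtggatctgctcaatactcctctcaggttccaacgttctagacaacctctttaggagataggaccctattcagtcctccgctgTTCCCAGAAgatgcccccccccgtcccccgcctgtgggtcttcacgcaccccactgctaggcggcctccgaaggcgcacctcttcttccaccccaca
B2m, chr2:122147437-122147686, plus strand: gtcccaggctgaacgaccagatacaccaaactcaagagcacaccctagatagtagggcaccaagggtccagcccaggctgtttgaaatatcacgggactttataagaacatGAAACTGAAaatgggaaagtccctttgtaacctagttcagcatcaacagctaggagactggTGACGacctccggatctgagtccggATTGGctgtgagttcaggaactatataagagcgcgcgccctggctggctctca

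Between Psmb9 and Tap1 there was 1 CCAAT box and 1 CRE-like box, before Psmb8 1 GAS element 97 bases from the start, and before B2m an IRF element at 139, a CRE-like box at 78 and a CCAAT box, on the other strand, at 53 bases from the start. The windows of H2-K1 and H2-D1 each held 2 kB elements, GGGAAGCCC and GGGATTCCC, 2 CCAAT boxes and 1 CRE-like box. That of H2-T23 held 1 IRF element and 1 CCAAT box, and that of Tapbp held 2 CCAAT boxes. Over all 32851 RefSeq windows of 300 bases, 8.56% held the IRF element, 18.6% the kB element, 8.3% the GAS element, 37.4% the CCAAT box and 20.8% the CRE-like box. A match is a run of letters and not a measured binding site.

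The class I heavy chains are close relatives in sequence. The dimmer H2-K1 probe and the H2-T23 probe share an unbroken run of 29 bases, given below in capitals because a transcript of either gene could bind in part to both. Of the 13 member probes, these 2 were the only ones that shared a run of 20 or more bases with a probe annotated to another gene. The H2-K1 probe also shared 22 bases with a probe of LOC100044874, and the H2-T23 probe 20 bases with one of Gm11127. Probes were compared only with other probes, so binding to transcripts of related class I genes was not tested.
H2-K1, probe A_55_P2049647, chr17:34133984-34134043 (mm9), minus strand: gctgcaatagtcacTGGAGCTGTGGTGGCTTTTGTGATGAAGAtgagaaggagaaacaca
H2-T23, probe A_51_P237754, chr17:36167338-36167574 (mm9), minus strand: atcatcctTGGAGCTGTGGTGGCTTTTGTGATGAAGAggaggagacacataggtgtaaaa
The H2-T23 positions span 237 bases for a probe of 60, so that probe crosses an exon junction. BALB/c mice carry the H2d haplotype, whereas the reference sequence comes from a strain with H2b, and how well each probe matches the BALB/c alleles was not tested.

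Before the members are described, 2 control arrays stood apart in the signal of T cell and thymocyte markers. T cell markers averaged 3.49 on control 1 and 2.25 on control 2 above their mean over the 8 arrays (log2), against −1.005 on control 3, −0.93 on control 4 and −1.30 to −0.19 on the exposed arrays. Thymocyte markers behaved alike, at 3.42 and 2.42 on controls 1 and 2 and at −1.46 to −0.03 on the other 6 arrays. Not every immune list did so. B cell markers averaged 0.23 and 0.31 on controls 1 and 2, against 0.26 on S539. Macrophage markers averaged 0.25 and 0.21 there, against 0.24 on control 4. Leukocyte markers (1.93 and 1.43) and NK cell markers (0.54 and 0.50) were highest on controls 1 and 2. Each member's result is therefore also given against controls 3 and 4 only, a comparison chosen after seeing these values. The 8 arrays shared 1 slide and 1 scan, and the exposed thyroids took its first positions, so the effects of position and exposure cannot be told apart. Of all spots, 60.48% to 75.01% on the control arrays and 70.86% to 77.28% on the exposed arrays were well above background, and no spot of a member was saturated. Of the 8 thyrocyte markers, 7 were well above background on every array, Tg among them, and Slc26a4 was so on 2 control and 3 exposed arrays.

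None of the 13 member probes passed limma's threshold (adjusted p under 0.05 over all probes) in either direction, where 0.587% of all probes passed it higher and 0.194% lower after exposure. An unadjusted p under 0.05 was reached by 3 member probes, against 12.2% of all probes, with Tap1 higher and Psmb8 and Psmb9 lower. Read by the brightest RefSeq probe of each gene, 9 of the 10 genes had a lower mean and 1 a higher mean in the exposed thyroids, with a median log2 fold change of −0.25, where the median over all RefSeq genes was −0.03. For 2 member probes every exposed array lay below every control array (4.37% of all probes), and for none did every exposed array lie above (4.74% of all probes).

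**Figure D1:**
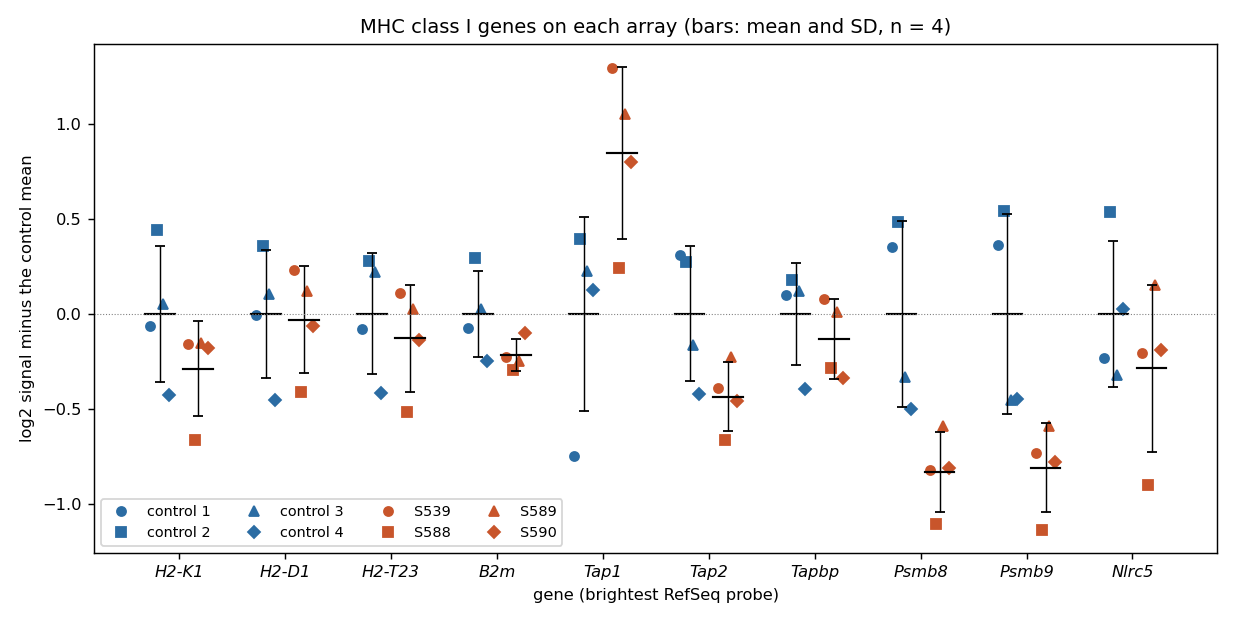
Log2 signal of each class I gene on each array, minus the mean of the 4 control arrays, for the brightest RefSeq probe; blue points are controls, orange points exposed thyroids, and bars give the mean and SD (n = 4). Psmb8 and Psmb9 are the genes whose exposed points all lie below the control points, while 3 of the 4 exposed points of Tap1 lie above all its control points.

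For the heavy chains and their light chain, the groups overlapped and no difference passed the test. H2-K1 and H2-D1 encode the classical heavy chains that present peptides to CD8 T cells. The signal of H2-K1 (10 spots averaged) was 15.14, 15.65, 15.26 and 14.78 on controls 1 to 4, and 15.05, 14.54, 15.05 and 15.02 on S539, S588, S589 and S590. The exposed values fell inside the control range except S588, the lowest of the 8. The log2 fold change was −0.29 (SE 0.22, 95% confidence interval −0.80 to 0.22, adjusted p = 0.617). The dimmer H2-K1 probe gave −0.13 (SE 0.21, adjusted p = 0.827).

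For H2-D1 the controls read 14.97, 15.33, 15.08 and 14.52 and the exposed arrays 15.20, 14.56, 15.10 and 14.91. Every exposed value lay inside the control range, and the log2 fold change was −0.03 (SE 0.22, interval −0.54 to 0.48, adjusted p = 0.966). H2-T23, which encodes the non-classical molecule Qa-1 that displays leader peptides of other heavy chains to NK cell receptors, read 15.17, 15.53, 15.47 and 14.84 on the controls and 15.37, 14.73, 15.28 and 15.12 on the exposed arrays. Only S588 lay outside the control range, and the log2 fold change was −0.13 (SE 0.22, interval −0.63 to 0.37, adjusted p = 0.828).

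B2m, the light chain shared by all of these, was the most even member among the exposed mice. Its signal was 15.48, 15.85, 15.58 and 15.31 on the controls and 15.33, 15.26, 15.31 and 15.45 on the exposed arrays, an SD of 0.23 against 0.083. The groups overlapped, since control 4 stood among the exposed thyroids. The log2 fold change was −0.22 (SE 0.15, interval −0.57 to 0.13, adjusted p = 0.587). Against controls 3 and 4 only, the log2 fold changes were −0.10 for H2-K1, 0.14 for H2-D1, −0.03 for H2-T23 and −0.11 for B2m, so that the sign of H2-D1 turned. With 1 array left out, H2-K1 lay between −0.43 (without control 4) and −0.14 (without control 2), and was −0.16 without S588. B2m lay between −0.30 (without control 4) and −0.12 (without control 2). H2-D1 lay between −0.18 (without control 4) and 0.10 (without S588), and H2-T23 between −0.27 (without control 4) and −0.0004 (without S588). The size of these small differences therefore depended on single arrays, while only that of H2-D1 changed sign.

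The transporter subunits had fold changes of opposite sign, of which neither passed the threshold after adjustment. Tap1 and Tap2 encode the subunits of the TAP transporter, and Tapbp encodes tapasin, which ties it to the empty heavy chain. Tap1 (10 spots averaged) read 7.37, 8.51, 8.35 and 8.24 on the controls and 9.41, 8.36, 9.17 and 8.92 on the exposed arrays. S539, S589 and S590 lay above every control, and S588 lay among the controls. The log2 fold change was 0.85, or 1.80-fold (SE 0.32, interval 0.11 to 1.58, unadjusted p = 0.0288, adjusted p = 0.349 by limma).

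The S588 value of Tap1 rested on spots that did not read alike. There the 10 spots ran from 7.91 to 10.26 with a median of 8.13, and the scanner software marked 2 of them as outliers, while the spots ran from 9.29 to 9.58 on S539, from 9.08 to 9.33 on S589 and from 8.80 to 9.02 on S590. Without marked spots S588 read 8.08, and the log2 fold change was 0.78 (adjusted p = 0.438). Against controls 3 and 4 only it was 0.67 (adjusted p = 0.425). With 1 array left out it lay between 0.60 (without control 1, the lowest control) and 1.05 (without S588). The unadjusted p by limma was 0.0572 without control 1, and 0.0764, 0.0691 and 0.0518 without S539, S589 or S590. That p stayed under 0.05 without any other single array.

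Tap2 had a lower mean in the exposed thyroids, with 13.92, 13.88, 13.44 and 13.18 on the controls and 13.22, 12.94, 13.38 and 13.14 on the exposed arrays. Controls 1 and 2 lay above all other arrays, and the rest were mixed. The log2 fold change was −0.44 (SE 0.21, interval −0.91 to 0.04, adjusted p = 0.443), and against controls 3 and 4 only it was −0.14 (adjusted p = 0.758). Tapbp read 13.28, 13.35, 13.30 and 12.78 on the controls and 13.26, 12.89, 13.19 and 12.84 on the exposed arrays. The groups overlapped throughout, with a log2 fold change of −0.13 (SE 0.18, interval −0.56 to 0.29, adjusted p = 0.790) that was 0.0052 against controls 3 and 4 only, −0.27 without control 4 and −0.06 without S590.

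The immunoproteasome subunits were the members with the lowest exposed values relative to control. Psmb8 (LMP7) and Psmb9 (LMP2) are catalytic subunits that favour peptides with ends that class I molecules hold well. Psmb8 read 12.43, 12.57, 11.75 and 11.58 on the controls and 11.26, 10.98, 11.49 and 11.27 on the exposed arrays. Every exposed thyroid lay below every control, with 11.49 on S589 and 11.58 on control 4 nearest to each other. The log2 fold change was −0.83, or 0.561 of the control level (SE 0.26, interval −1.43 to −0.24, unadjusted p = 0.0122, adjusted p = 0.254 by limma).

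Psmb9 ran almost in step with it, at 12.44, 12.62, 11.62 and 11.63 on the controls and 11.34, 10.94, 11.49 and 11.30 on the exposed arrays. The groups again did not overlap, with a log2 fold change of −0.81 (SE 0.27, interval −1.44 to −0.18, unadjusted p = 0.0186, adjusted p = 0.298 by limma). The single spot of this probe carried an outlier mark on 5 of the 8 arrays, which included all 4 exposed ones, whereas the Psmb8 spot carried none. A second Psmb9 probe was well above background on only 1 control and 2 exposed arrays and gave −0.61 (SE 0.56, adjusted p = 0.680).

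Both differences were smaller without controls 1 and 2, the arrays with the high T cell and thymocyte genes. Against controls 3 and 4 only, the log2 fold change was −0.42 for Psmb8 (adjusted p = 0.424) and −0.36 for Psmb9 (adjusted p = 0.483), and no member probe then had an unadjusted p under 0.05. Psmb10, the remaining inducible subunit, read 14.25, 14.05, 13.69 and 13.73 on the controls and 13.24, 13.03, 13.37 and 13.17 on the exposed arrays. Its groups did not overlap either, with a log2 fold change of −0.73 (SE 0.17, interval −1.13 to −0.33, adjusted p = 0.137). Markers of dendritic cells, which carry the immunoproteasome, had a lower mean in the exposed thyroids for 8 of 8 genes, of which 4 did not overlap (Itgax, Cd209a, Clec9a and Cd86), where 6.21% of RefSeq genes lay lower without overlap. Their average relative to all arrays was 0.30 to 1.12 on the controls and −0.70 to −0.56 on the exposed arrays, and Xcr1 was not well above background on any array. T cell markers had a lower mean for 7 of 7 genes and thymocyte markers for 6 of 7 (all but Themis), with no gene free of overlap. A lower mean was not particular to these lists. Leukocyte markers had it for 5 of 5 genes, 2 of them without overlap, and macrophage markers for 8 of 9, 3 of them without overlap. B cell markers had it for 5 of 6, all with overlap, and NK cell markers for 3 of 6, 1 of them without overlap. Klrb1c and Klrd1 of the NK list were not well above background on any array. The part of these cells in the values of Psmb8, Psmb9 and Psmb10 was not tested.

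**Figure D2:**
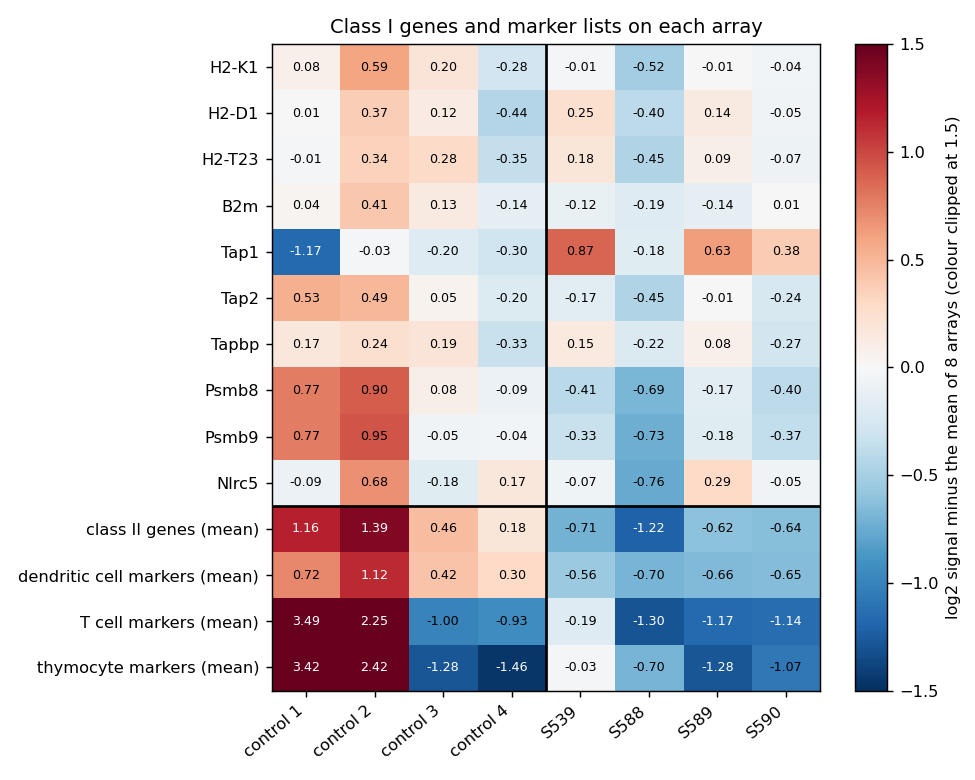
Log2 signal of each class I gene, and the average of the class II, dendritic cell, T cell and thymocyte lists, on each array relative to the mean of all 8 arrays. Psmb8 and Psmb9 stand at 0.77 to 0.95 on controls 1 and 2, where T cell markers stand at 3.49 and 2.25, and Tap1 stands at −1.17 on control 1.

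Nlrc5, the transactivator that binds class I promoters, likewise had overlapping groups. Its brighter probe read 8.40, 9.17, 8.31 and 8.66 on the controls and 8.43, 7.74, 8.79 and 8.44 on the exposed arrays. S588 was the lowest and control 2 the highest, and the others were mixed. The log2 fold change was −0.29 (SE 0.28, interval −0.93 to 0.36, adjusted p = 0.697), and −0.14 against controls 3 and 4 only. It was −0.11 without control 2, −0.08 without S588 and −0.43 without S589. The second probe, well above background on 3 control and 4 exposed arrays, gave 0.03 (SE 0.35, adjusted p = 0.976).

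**Figure D3:**
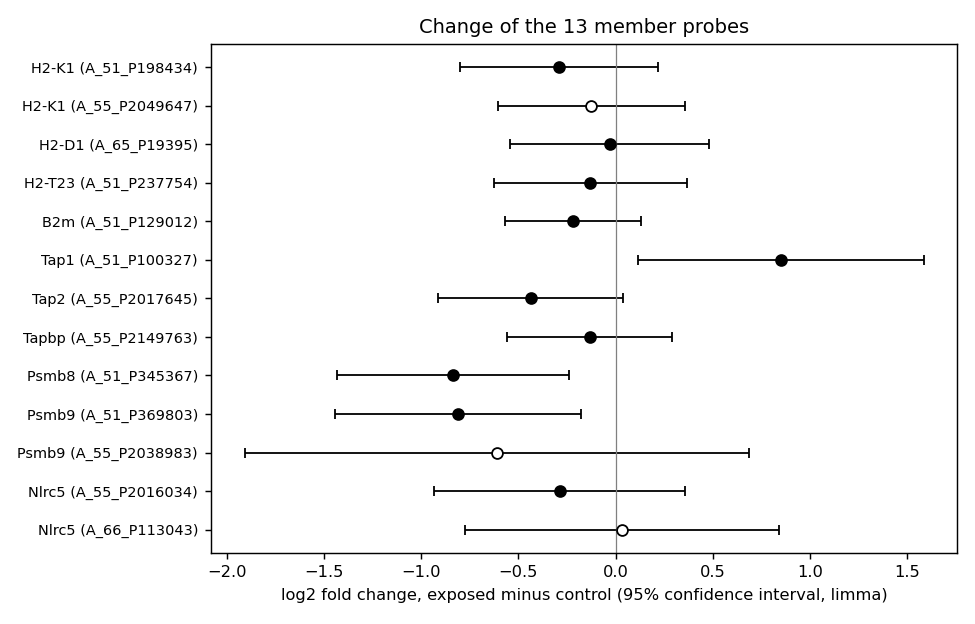
Log2 fold change, exposed minus control, of the 13 member probes with 95% confidence intervals from limma; filled points are the brightest RefSeq probe of a gene and open points its second probe. The intervals of Tap1, Psmb8 and the brighter Psmb9 probe leave out 0 before adjustment, and Tap1 lies on the other side from both subunits.

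The same arrays tended to be high or low across the members. Control 2 was the highest control for 10 of the 13 probes and control 4 the lowest for 8, and S588 was the lowest exposed thyroid for 11. The members therefore share part of the spread within a group and are not independent of each other.

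To set each inducible gene against a counterpart on the same array, the log2 difference between 5 pairs of genes was compared by a two-sided exact permutation test over 70 assignments, whose smallest p is 0.0286, with adjustment over the 5 pairs. Because each probe binds with its own strength, the shift between the groups carries the information here and not the level of the difference. The constitutive subunits Psmb5, Psmb6 and Psmb7, which the inducible ones replace, had log2 fold changes of −0.09, −0.08 and −0.15 (adjusted p of 0.765, 0.819 and 0.793). Psmb9 relative to Psmb6 was −3.06, −2.89, −3.93 and −3.88 on the controls and −4.25, −4.30, −4.01 and −4.13 on the exposed arrays. The groups did not overlap, and the difference was −0.73 (exact p = 0.0286, adjusted p = 0.0714). Psmb8 relative to Psmb5 differed by −0.74 (exact p = 0.0571, adjusted p = 0.0952) and Psmb10 relative to Psmb7 by −0.58 (exact p = 0.0857, adjusted p = 0.107), both with overlap. Against controls 3 and 4 only, these differences were −0.27, −0.37 and −0.49. None of these 3 differences passed 0.05 after adjustment. With 5 pairs, a pair at the smallest p passes only if at least 3 pairs reach that p, and here 2 did, so the adjusted p of Psmb9 relative to Psmb6 was set by the other pairs.

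Class I was then set against class II. B2m relative to H2-Ab1, the beta chain of a class II molecule of antigen-presenting cells, was 0.17, 0.32, 1.42 and 1.49 on the controls and 2.20, 2.74, 2.21 and 2.61 on the exposed arrays. Every exposed value was above every control value, and the difference was 1.59 (exact p = 0.0286, adjusted p = 0.0714), or 0.98 against controls 3 and 4 only. H2-Ab1 itself had a log2 fold change of −1.81 (SE 0.41, adjusted p = 0.121). The class II list of 10 genes had a median of −1.63, with 8 genes lower without overlap (6.21% of RefSeq genes) and 1 that passed limma's threshold, namely H2-Aa, the alpha chain, at −2.22 (SE 0.35, adjusted p = 0.0386). H2-Aa lost that call whenever any 1 array was left out (adjusted p of 0.0669 to 0.117) and against controls 3 and 4 only (0.189), while its log2 fold change was −2.41 to −1.96 and −1.88. Nlrc5 relative to Ciita, the class II transactivator, differed by −0.22 (exact p = 0.743, adjusted p = 0.743).

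**Figure D4:**
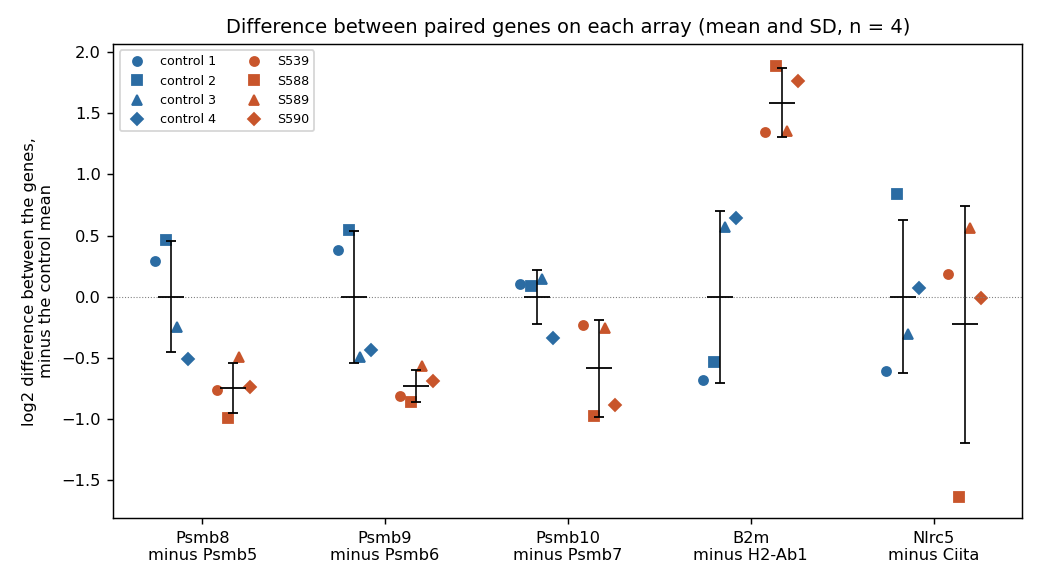
Log2 difference between the genes of each pair on each array, minus the mean of the 4 control arrays, with mean and SD (n = 4). For Psmb9 minus Psmb6 the exposed points lie below all controls, for B2m minus H2-Ab1 above all controls, and for the other 3 pairs the groups overlap.

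The other genes of the pathway had medians near 0. Among 15 further processing and loading genes, which include the chaperones calreticulin and ERp57 and the trimming peptidases, none passed limma's threshold, and the median log2 fold change was −0.10. Of them 1 lay higher and 2 lower without overlap, where 5.44% of RefSeq genes lay higher and 6.21% lower. These genes, and those named in the next sentences for the same reason, were picked out after their values were seen. The higher one was Npepps, the puromycin-sensitive aminopeptidase that trims peptides in the cytosol, at 12.46, 12.31, 12.47 and 12.46 on the controls and 13.08, 12.92, 13.05 and 13.02 on the exposed arrays. Both groups were tight, and its log2 fold change was 0.59 (SE 0.12, adjusted p = 0.0873). The lower ones were Psmb10, given above, and Ctss, the lysosomal protease cathepsin S of antigen-presenting cells, with −0.87 (SE 0.22, adjusted p = 0.156). The chaperones Calr and Pdia3 gave −0.23 and 0.14 with overlap. Erap1, which trims peptides in the endoplasmic reticulum, gave −0.46 (adjusted p = 0.370), and its groups overlapped too.

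Among 20 measured class I and class I-like chains of 22 listed, none passed, and the median was −0.12. Without overlap 1 lay lower, where 6.21% of RefSeq genes did. This was Mr1, the molecule that presents microbial vitamin B metabolites to MAIT cells, with −0.75 (SE 0.16, adjusted p = 0.0990). H2-M5 was not well above background on any array, and H2-L and H2-T22 were not found by name.

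Of 27 regulators of class I transcription, where 1.2% of all RefSeq genes passed limma's threshold in either direction, 1 passed. This was Socs1, the inhibitor of JAK kinases that limits the interferon gamma signal, at 11.20, 10.97, 10.41 and 10.56 on the controls and 9.04, 7.78, 8.08 and 8.46 on the exposed arrays. The groups lay far apart, with a log2 fold change of −2.45 (SE 0.31, adjusted p = 0.0175). The call was lost without control 2, S589 or S590 (adjusted p of 0.0697, 0.0709 and 0.0633) and against controls 3 and 4 only (adjusted p = 0.137), while the log2 fold change stayed between −2.68 and −2.11 over 13 alternatives. The median of the regulators was −0.06, with 2 genes higher and 3 lower without overlap. Of all RefSeq genes, 5.44% lay higher and 6.21% lower without overlap. The higher ones were the transcription factors Irf3 (0.39, adjusted p = 0.284) and Nfyb (0.58, adjusted p = 0.247), and the lower ones, beside Socs1, were Irf8 and the kinase Jak1 (−0.21, adjusted p = 0.505). Irf8, a transcription factor of dendritic cells and macrophages, read 11.76, 11.73, 11.18 and 10.78 on the controls and 10.15, 9.95, 10.01 and 10.04 on the exposed arrays, with a log2 fold change of −1.33 (SE 0.24, adjusted p = 0.0581). Irf1, a transcription factor that binds IRF elements, gave −0.58 (adjusted p = 0.380) with overlap. Ifng itself was well above background on 3 control and 2 exposed arrays. Its log2 fold change was −0.81 (SE 0.28, adjusted p = 0.307), with overlap.

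Of 27 interferon-stimulated genes none passed, and the median was −0.04. Without overlap 1 lay higher and 4 lower, where 5.44% of RefSeq genes lay higher and 6.21% lower. The higher one was Gbp6 (1.06, adjusted p = 0.155), a guanylate-binding protein. The 4 that lay lower were Gbp4 of the same family (−0.83, adjusted p = 0.193), the GTPases Irgm2 (−0.66, adjusted p = 0.259) and Igtp (−0.64, adjusted p = 0.349), and the chemokine Cxcl10 (−1.60, adjusted p = 0.197). Of the 27 genes, 10 had a higher and 17 a lower mean after exposure, where 9748 and 11273 of 21021 RefSeq genes did. The list was not split into genes of interferon gamma and genes of other interferons.

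**Figure D5:**
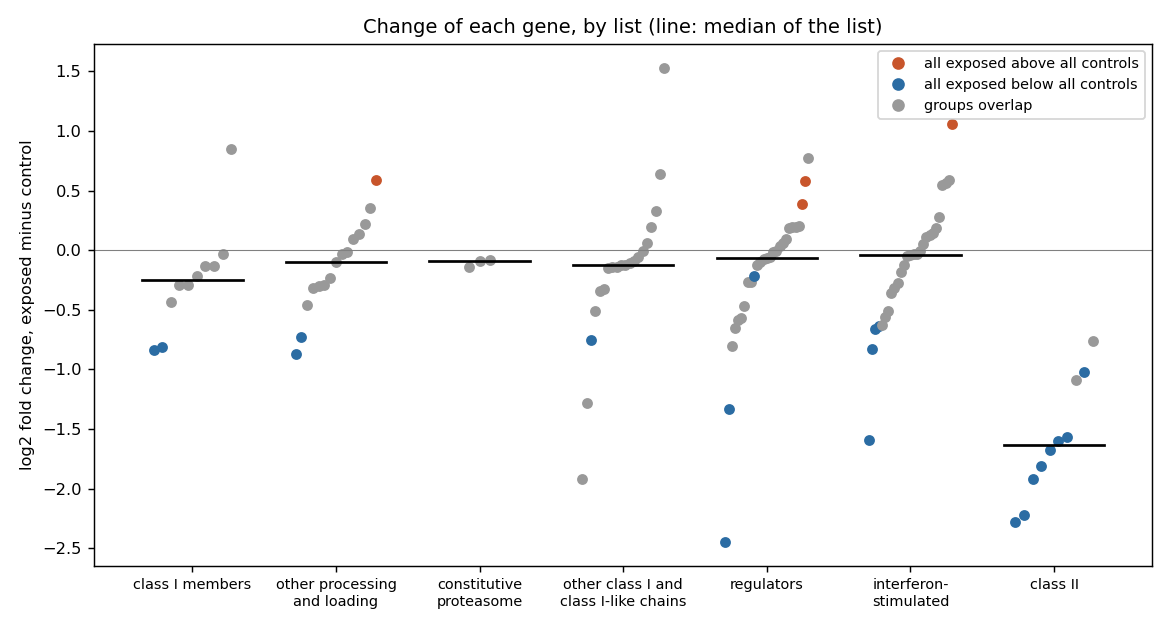
Log2 fold change of each gene, by list, with the median of each list as a line; colours mark genes whose exposed and control arrays do not overlap. The class II genes lie at a median of −1.63, while the class I members (−0.25) and the other 5 lists plotted lie nearer to 0.

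Among the markers of other cell types, Clec9a, a receptor of cross-presenting dendritic cells that feed the class I pathway from outside, was the only listed marker past limma's threshold. It read 6.62, 7.66, 7.25 and 6.73 on the controls and was not well above background on any exposed array. In the main values the control level was therefore at least 5.61-fold higher, and the fitted change had an adjusted p of 0.00746 by limma. Against controls 3 and 4 only the adjusted p was 0.0525. Its fitted log2 fold change was −2.92, and −1.15 in the deposited values and −1.08 with normexp background correction, which do not subtract background in the same way. The bound of 5.61-fold therefore does not carry over to those values.

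The genes whose signal over the 8 arrays was most like a member's were sought among 13757 RefSeq genes whose mean log2 signal was 7 or more. Psmb8 was most like H2-Ab1 (Pearson r = 0.986), Lpxn (0.982) and Tbc1d30 (0.981). Tap1 was most like Pgpep1 (0.978), 4921517L17Rik (0.974) and Chd5 (0.973). B2m was most like Orai2 (0.943), Mmgt2 (0.943) and Me2 (0.936), and Nlrc5 was most like Cd14 (0.928), Gfra2 (0.927) and Rpl28 (0.914). These values describe 8 arrays that share their groups, and the best of many candidates is high by choice.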

How the data were processed

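RNA of 8 mouse thyroids, 4 control and 4 exposed to 99mTcO4-, was measured on one-colour Agilent arrays. The deposited scanner files, written by Feature Extraction 10.7.3.1, give each spot an intensity before and after background subtraction, and the authors also deposited log2 values, which matched quantile-normalized median intensities within 0.0378. The methods name limma, quantile normalization and an adjusted p of 0.05, and 4 biological replicates per condition.

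Here the log2 of the background-subtracted intensity was quantile-normalized, control spots were dropped and repeated spots of a probe were averaged. The groups were compared with limma 3.58.1 in R 4.3.3 (lmFit and eBayes, no covariate) over 55681 probes with Benjamini-Hochberg adjustment. A gene was read by its brightest RefSeq probe, and a probe counted as well above background on an array where at least 0.5 of its spots were. Accessions of 27220 of 27752 RefSeq probes were found in the GRCm38.p6 table, and positions of probes come from the array files (mm9). Pairs of genes were compared by exact permutation. The bound for a group below background is the group mean of, per array, the probe's signal or that of the dimmest probe well above background, whichever was higher.

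All probes of the members were named, with every gene of the lists that passed the threshold, the genes of the 5 pairs and the 3 most correlated genes of B2m, Tap1, Psmb8 and Nlrc5. Genes named beyond this rule, as not overlapping, dim, not found or central to interferon signalling, were chosen after their values were seen. The members and lists were chosen with earlier results of these data known, so no count over a list is independent evidence. Other marker lists (leukocytes, macrophages, B cells, NK cells, endothelium, fibroblasts, parathyroid and C cells, skeletal muscle, adipocytes) had median log2 fold changes of −1.58, −0.43, −0.41, 0.06, 0.04, −0.46, 0.36, −0.91 and 0.55, and thyrocytes −0.30. The procedure was tested on simulated arrays with noise independent between probes and added shifts larger than the change of any member probe. That test does not cover changes as small as those of the members, or spread shared between probes. Alternatives were other scaling (75th percentile), normexp background correction (offset 50), a filter on dim probes, the deposited values and an intensity trend. Further ones were array weights, no marked spots, Student's t-test on the log2 values and leaving out each array. The methods name that t-test for comparing pairs of conditions in general, and not for the arrays. The number of arrays limits the precision.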

Additional observations from a re-analysis of the deposited data

Results flagged for a closer look

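In 3 of 36 groups of 4 arrays tested, 1 array stood far from the other 3, where chance gives about 1.8. The brighter H2-K1 probe read 14.54 on S588, against 15.02 to 15.05 on the other exposed arrays. Tapbp read 12.78 on control 4, against 13.28 to 13.35 on the other controls. The log2 difference Psmb10 minus Psmb7 was 0.44 on control 4, against 0.87 to 0.92 on the other controls.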

How the results depend on the processing

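No member probe was called, higher or lower, under any of the alternatives. The probes called in all numbered 435, and 577 with 75th percentile scaling, 856 with normexp, 955 in the deposited values and 733 with the dim filter. They numbered 744 with an intensity trend, 959 with array weights, 289 by Student's t-test and 89 against controls 3 and 4 only (chosen after seeing the data). With 1 array left out they numbered 100 (without S590) to 481 (without control 1). The share of called probes that were higher was 75.2%, and ran from 60.9% with array weights to 86.5% without S588 (84.7% with 75th percentile scaling). H2-D1 turned to 0.003582 in the deposited values, 0.003761 without marked spots and 0.1435 against controls 3 and 4 only, and ranged from −0.1817 to 0.09637 with 1 array left out, above 0 without control 2 (0.08786), control 3 (0.003761) or S588. Tapbp turned to 0.005237 against controls 3 and 4 only, and Nlrc5 minus Ciita ranged from −0.48573 to 0.24631, above 0 without control 2 (0.05576) or S588. In the deposited values Psmb8 minus Psmb5 (−0.73294), Psmb9 minus Psmb6 (−0.70585) and B2m minus H2-Ab1 (1.6174) passed at an adjusted exact p of 0.0476, as they did without control 4 (−0.91288, −0.87619 and 1.801). With 1 array left out they ranged from −0.91288 to −0.59001, −0.89405 to −0.5478 and 1.3615 to 1.801. A pass follows from the adjustment: Psmb8 minus Psmb5 then also reached the smallest exact p (0.0286), as the other 2 do with all arrays. For the other changes the cause was not tested. Over the alternatives Psmb8 stayed between −1.002 and −0.42 and Tap1 between 0.60 and 1.05. Psmb9 could not be fitted without marked spots, since its spot is marked on all exposed arrays. No paired analysis was possible because the groups share no replicate numbers.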
